A study of Mus musculus with 45 samples.

Results

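The two-cell-like state genes Zscan4a, Zscan4c, Zscan4d, Zscan4e, Zscan4f, Tcstv1, Tcstv3, Zfp352 and Tmem92 were followed while male mouse embryonic stem cells (ESCs) left naive pluripotency. The genes were taken by symbol, and 7 of the 9 symbols had a row among the 35372 rows of the count tables, since no row carried Zscan4a or Zscan4e. All libraries came from E14tg2a, a wild-type male ESC line of 129/Ola origin that carries no transgene. Cells started either from 2iL, a serum-free N2B27 medium with the GSK3 inhibitor CHIR99021, the MEK inhibitor PD0325901 and LIF, or from SL, serum with LIF, and cells had gone through no more than 3 passages in 2iL before they were differentiated. From each medium, 3 courses were followed to day 7, with libraries at days 1, 1.5, 2, 2.5, 3, 5 and 7: EB, embryoid bodies in suspension in serum; EpiSC, adherent serum-free culture with Fgf2 and ActivinA; and Neural, adherent culture in serum-free N2B27 alone. Day 0 was represented by 3 libraries from 2iL, one for each course, and by 1 library from SL that served all courses. No 2iL EpiSC library of day 5 was among the samples, which held 23 libraries from 2iL and 22 from SL.

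In mouse development these transcripts belong to the first wave of zygotic genome activation, at the cleavage stage that gives the state its name, and are silent again by the blastocyst. In ESC cultures a small and changing fraction of cells switches the program on for a short time, and the transcription factor Dux, with Dppa2 and Dppa4 acting before it, is known to start it. Zscan4 proteins carry a SCAN domain and zinc fingers and are known for telomere lengthening in ESCs, Zfp352 encodes a zinc finger protein, Tmem92 a membrane protein, and Tcstv1 and Tcstv3 members of a family expressed at the same stage. The libraries were made from whole cultures, so more cells in the state and more RNA in each such cell could not be told apart.

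Zscan4c, Zscan4d and Zscan4f lie in one cluster on chromosome 7 (GRCm38), at 11005745 to 11010547 on the plus strand, 11161374 to 11166159 on the minus strand and 11397915 to 11402318 on the plus strand. Zfp352 lies on chromosome 4 from 90218820 to 90225702, Tmem92 on chromosome 11 from 94777217 to 94782703, and Tcstv1 and Tcstv3 on chromosome 13, from 119893388 to 119894785 and from 120316878 to 120318178. The annotation lists all 7 as protein-coding. The 250 bases before the RefSeq start of the 3 Zscan4 genes and of Zfp352 are shown because the members moved together in the data; they were read from RefSeq promoters of GRCm38.p6, which held no entry for Tcstv1, Tcstv3 or Tmem92, and are written 5′ to 3′ on the strand of the gene. Each window ends just before the annotated gene start except that of Zscan4d, whose RefSeq start lies 11 bases inside the gene bounds given above. Capitals mark TGATTNAA, letters at the core of the site that Dux is known to bind, and TATAAAA, the letters of a core promoter element.
Zscan4c, chr7:11005495-11005744: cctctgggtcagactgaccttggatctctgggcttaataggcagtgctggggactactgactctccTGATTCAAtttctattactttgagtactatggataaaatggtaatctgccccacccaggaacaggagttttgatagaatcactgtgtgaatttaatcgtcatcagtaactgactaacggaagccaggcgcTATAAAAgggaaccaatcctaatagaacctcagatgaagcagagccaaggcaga
Zscan4d, chr7:11166149-11166398: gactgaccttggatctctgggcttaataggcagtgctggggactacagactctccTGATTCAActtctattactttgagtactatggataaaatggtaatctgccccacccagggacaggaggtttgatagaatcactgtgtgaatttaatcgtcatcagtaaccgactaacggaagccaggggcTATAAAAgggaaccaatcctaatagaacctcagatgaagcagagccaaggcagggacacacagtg
Zscan4f, chr7:11397665-11397914: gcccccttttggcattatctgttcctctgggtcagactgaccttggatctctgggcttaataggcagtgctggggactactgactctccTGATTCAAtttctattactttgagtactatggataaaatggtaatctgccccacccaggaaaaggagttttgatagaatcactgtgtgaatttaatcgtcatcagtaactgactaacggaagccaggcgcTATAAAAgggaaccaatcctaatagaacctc
Zfp352, chr4:90218570-90218819: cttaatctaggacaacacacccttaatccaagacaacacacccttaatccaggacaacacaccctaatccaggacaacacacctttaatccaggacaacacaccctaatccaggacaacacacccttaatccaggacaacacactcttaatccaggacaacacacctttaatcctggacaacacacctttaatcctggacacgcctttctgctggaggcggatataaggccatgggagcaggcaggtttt
The windows of Zscan4c and Zscan4f were 99.6% identical over 227 aligned bases, and that of Zscan4d was 97.1% identical to the window of Zscan4c over 239. Each of the 3 Zscan4 windows held TGATTNAA once and TATAAAA once, and counted from the annotated gene starts TATAAAA lay 31 to 25 bases before Zscan4f and 54 to 48 bases before both Zscan4c and Zscan4d. On either strand, TGATTNAA was present in 2.60% and TATAAAA in 4.98% of 32817 promoters of the same length. The Zfp352 window held neither motif. A longer form of the Dux letters, which contains TGATTNAA, was also searched. It was present in 10 of the 32817 promoters and in none of the windows shown. The Zscan4 windows thus matched the shorter core only. The letters were searched after the windows had been seen, and a match is no evidence of binding.

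The near identity of the Zscan4 genes extends to their transcripts and limits how far their counts can be separated. Of all stretches of 100 letters in the annotated exons, 27.2% were found only in that gene for Zscan4c, 19.4% for Zscan4f and 70.4% for Zscan4d, against 92.2% to 100% for Tcstv3, Tcstv1, Zfp352 and Tmem92. With stretches of 50 letters the shares were 14.5% for Zscan4c, 13.2% for Zscan4f and 50.4% for Zscan4d. They were then 68.6% for Tcstv3, 85.0% for Tcstv1, 92.9% for Zfp352 and 98.1% for Tmem92. Zscan4f had 1.08 to 1.59 reads for each Zscan4c read in the 45 libraries, with a median of 1.20, and Zscan4d 0.184 to 0.411, with a median of 0.348. Counts of Zscan4c, Zscan4d and Zscan4f are therefore given separately below but are uncertain as measures of single copies.

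Library totals ran from 13093226 to 39804240 assigned reads with a median of 18222720, so that 3 reads, the floor used here, corresponded to 0.165 CPM, the reads of a gene scaled to the library total, at the median depth. The 2iL EB libraries had a median of 34490692 reads against 17297450 in the others. Per kilobase of exon, Zscan4f reached 399 CPM, Zscan4c 288, Zscan4d 103, Tmem92 13.7, Zfp352 6.06, Tcstv3 3.35 and Tcstv1 3.03. Zscan4c, Zscan4d and Zscan4f had at least 3 reads in every library, whereas Tcstv3 had fewer than 3 reads in 25 and Tcstv1 in 18 of the 45. The labelled state of the cells was visible in its markers: at days 1.5 to 3, Zfp42, Nanog, Esrrb, Klf4 and Tfcp2l1, factors of naive pluripotency, were lower than at day 0 and Fgf5, Pou3f1 and Otx2, markers of the later epiblast, were higher, from both media (adjusted p at most 0.032), and the general factor Pou5f1 was not called.

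**Figure D1:**
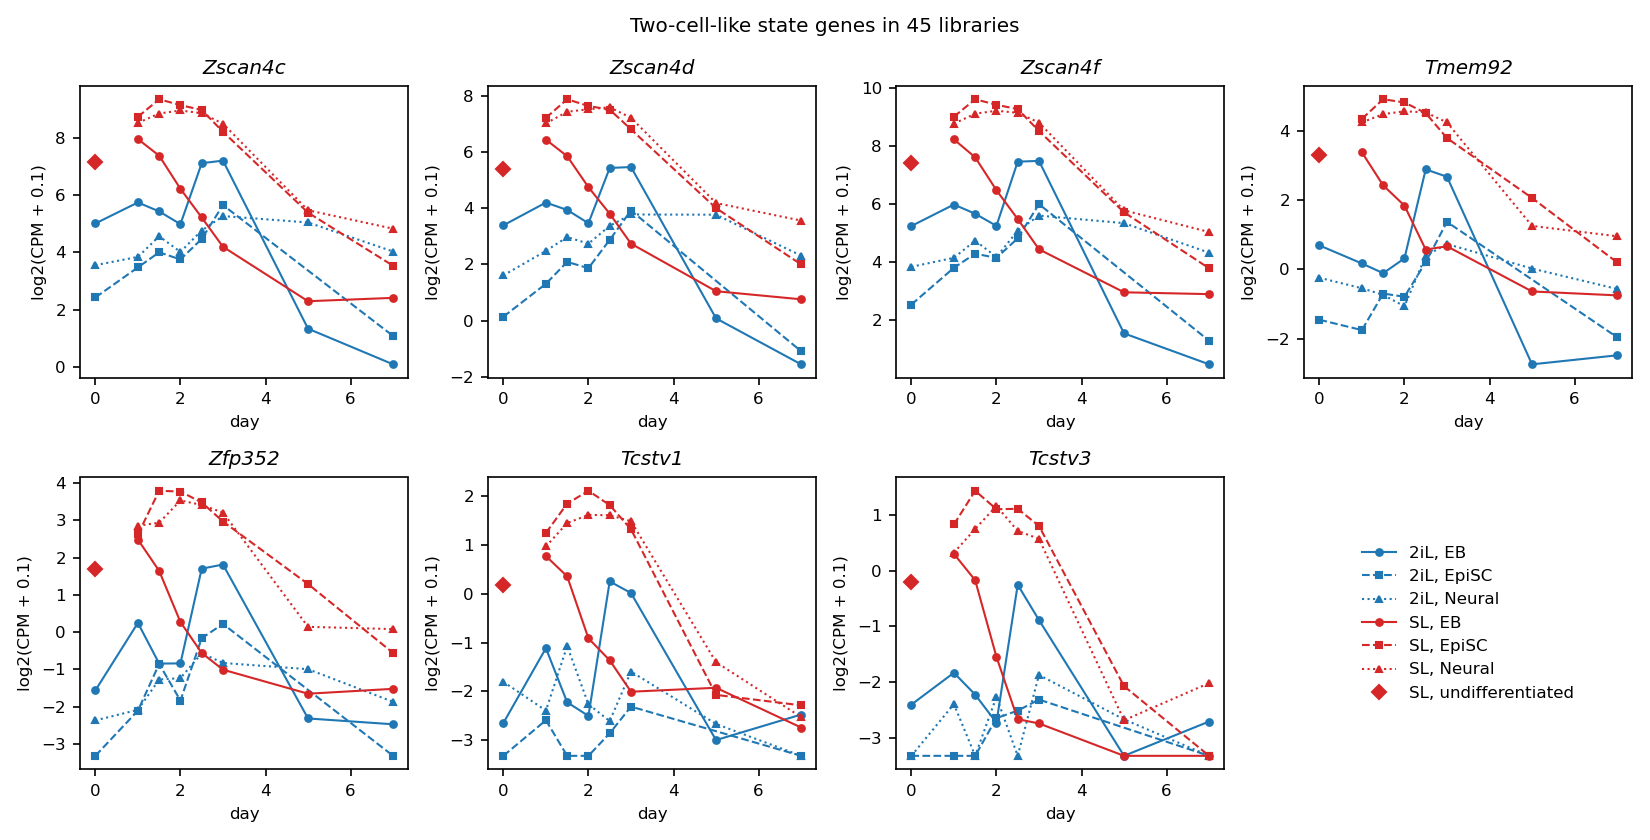
CPM of each member on a log2 scale (with 0.1 CPM added) against day of differentiation, one point for each library, in blue for cells from 2iL and red for cells from SL, with the 3 courses as separate lines and the single undifferentiated SL library as a diamond. The EpiSC and Neural lines from SL lie highest from day 1 to day 3 in every panel, and the EB lines from the 2 media cross between days 2 and 2.5.

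Before differentiation the members were low in 2iL and high in SL. Zscan4c, the member with the second highest count, stood at 32.1, 5.26 and 11.6 CPM in the 2iL libraries of the EB, EpiSC and Neural courses and at 144 CPM in the SL library. Tmem92 stood at 1.52, 0.266 and 0.747 CPM in 2iL and at 9.65 in SL. Zfp352 had 8, 0 and 2 reads in the 2iL libraries, that is 0.238, 0 and 0.0934 CPM, and 57 reads or 3.13 CPM in SL. For each of the 7 members the SL library lay above all 3 libraries from 2iL. Among the latter the EB library was the highest for every member but Tcstv1. The share of all genes with either order was not counted. Tcstv1 had 2, 0 and 4 reads in 2iL and 19 in SL, and Tcstv3 had 3, 0 and 0 reads in 2iL and 14 in SL.

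In the fit over the 4 day 0 libraries, all 7 members were called lower in 2iL than in SL (edgeR's quasi-likelihood test, Benjamini-Hochberg adjusted over all genes), where 17.3% of 14947 genes tested were called lower. The log2 fold change was -4.42 ± 0.73 (SE, adjusted p = 0.0025) for Zfp352, -3.33 ± 0.55 (adjusted p = 0.0025) for Tmem92 and -3.05 ± 0.60 (adjusted p = 0.0054) for Zscan4c, and the members' median was -3.33 against 0.01 for all genes. SL was a single library here, so the spread came from the 2iL libraries only. The call was lost for most members with other fits: DESeq2 called 2 of the 7 lower (Zfp352 and Tmem92), and one fit over all 45 libraries called 1 (Zfp352), with log2 fold changes for Zscan4c between -3.97 and -2.65 over all alternatives. Of the list of other transcripts of the same program, 19 of the 20 tested were lower in 2iL, led by Tdpoz4 with -4.99 ± 0.99 and AF067061 with -4.06 ± 0.53.

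Markers of extraembryonic endoderm, a second cell type that SL cultures can hold, moved in the same direction. Gata6, Gata4, Sox17, Sox7, Dab2 and Pdgfra summed to 2.85 to 8.83 CPM in the 2iL libraries and 195 CPM in the single SL library of day 0. Their median log2 fold change, 2iL against SL, was -4.67, against 0.01 for all genes. At days 1 to 3 their sum was at most 157 CPM from 2iL and 214 to 587 CPM from SL. The trophoblast markers Cdx2, Elf5, Gata3 and Hand1 summed to at most 5.86 CPM at day 0. The part of extraembryonic endoderm in the members' difference was not tested.

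From day 1 to day 3 each of the 7 members was higher from SL in 10 of 10 pairs of adherent libraries of the same course and day, and in 3 of 5 pairs of EB libraries. Over days 1 to 7, Zscan4c, Zscan4d, Zscan4f, Zfp352 and Tmem92 were higher from SL in 18 of 20 pairs of libraries, Tcstv1 in 17 and Tcstv3 in 14 with 2 pairs equal. For the first 5 genes the exceptions were the EB pairs at days 2.5 and 3. In EpiSC culture at day 1.5, Zscan4c stood at 15.9 CPM from 2iL and 655 CPM from SL, 41.2 times as high, and in Neural culture at day 2 it stood at 16.1 and 499 CPM. In EB culture it stood at 53.5 and 249 CPM at day 1, whereas at day 3 the 2iL library, with 148 CPM, lay above the SL library, with 18.2.

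Averaged over days 1 to 3 and over the courses, all 7 members were called lower from 2iL, against 19.9% of 16457 genes, with log2 fold changes of -3.26 ± 0.49 for Tmem92 (adjusted p = 6.3e-06), -3.05 ± 0.52 for Zfp352 and -2.85 ± 0.57 for Zscan4c (adjusted p = 0.00024). Tcstv1 and Tcstv3 had -3.20 ± 0.53 and -3.08 ± 0.55. The days of a course are serial samples, which this fit took as independent beyond a course term shared by both media. Without the EpiSC libraries 4 of the 7 remained past the threshold, all with the same sign. From the list of other transcripts of the program, 20 of 21 tested were lower from 2iL, led by Usp17le, of a deubiquitinase family, with -3.20 ± 0.53 and AF067061 with -3.17 ± 0.56, and the median was -2.96. At days 5 and 7 edgeR and DESeq2 called 0 of the 7 members, at 1.02% of genes called by edgeR, and 2 (Zfp352 and Tmem92) had an unadjusted p under 0.05. Without the EB libraries 2 were called lower. The fitted values ran from -2.41 ± 1.04 for Zfp352 to -0.82 ± 1.54 for Tcstv3.

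**Figure D2:**
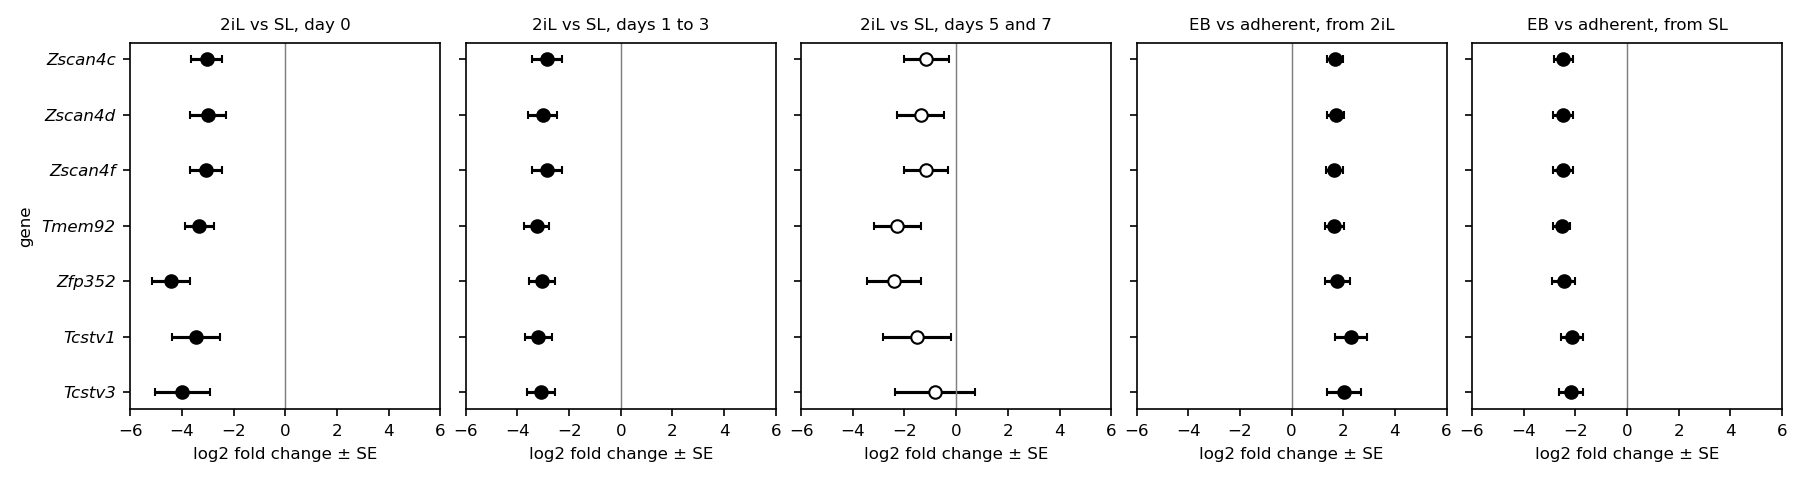
Fitted log2 fold change of each member with its standard error (horizontal bars) in 5 comparisons, on one common axis. Filled points passed an adjusted p of 0.05 and open points did not; the members lie left of 0 at day 0 and at days 1 to 3 in 2iL against SL, right of 0 for EB against adherent culture from 2iL and left of 0 for the same contrast from SL.

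After release from 2iL the highest values came at days 2.5 and 3 in most series, and the later values differed between the courses. Zscan4c in EB culture from 2iL stood at 32.1, 53.5, 43.1 and 31.6 CPM at days 0, 1, 1.5 and 2, then at 139 and 148 CPM at days 2.5 and 3, and at 2.41 and 0.958 CPM at days 5 and 7. In EpiSC culture it stood at 5.26 CPM at day 0, at 15.9, 13.4 and 22.1 CPM at days 1.5, 2 and 2.5, at 50.2 CPM at day 3 and at 2.00 CPM at day 7. In Neural culture it stood at 11.6 CPM at day 0, at 23.5, 16.1 and 27.1 CPM at days 1.5, 2 and 2.5, and at 38.4, 32.9 and 16.2 CPM at days 3, 5 and 7. The highest value of each of the 3 courses was thus at day 3, at 4.60, 9.56 and 3.31 times the day 0 library of the same course, and the late values separated the courses, with Neural far above the other two. Tmem92 in EB culture stood at 1.15, 7.28 and 0.0502 CPM at days 2, 2.5 and 5, and Zfp352 had 18, 98 and 4 reads in the same libraries.

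Against day 0, edgeR called 0 of the 6 members tested at day 1 from 2iL, where 28.6% of genes were called in either direction; the Tcstv3 counts were too low for the filter. None of the 6 had an unadjusted p under 0.05, and DESeq2 also called 0. At days 1.5 to 3, 1 of the 6 was called higher, Zfp352 at 2.66 ± 0.80 (adjusted p = 0.010), against 27.7% of genes called higher, and the others had positive values from 0.82 ± 0.68 for Tmem92 to 1.67 ± 0.80 for Zscan4d. This count depended on single courses and tools: it was 4 without the EB libraries and without the Neural libraries, 0 without the EpiSC libraries, 2 by DESeq2, and 2 without any one of the EB and Neural libraries of days 5 and 7. At days 5 and 7, 0 of 6 were called against day 0 by edgeR and by DESeq2, at 64.7% of genes called, with 0 at an unadjusted p under 0.05. Without the Neural libraries, or without the Neural library of day 5 alone, 4 were called lower, and without that of day 7 1. A comparison added after the values were seen set days 5 and 7 against days 1.5 to 3 from 2iL: 6 of 6 were lower, against 29.6% of genes, from -2.71 ± 0.80 for Tcstv1 to -2.01 ± 0.74 for Zscan4f. Without the EB libraries 0 were called, without the EB library of day 5 1, without the EpiSC library of day 7 3, and without the EpiSC libraries 2.

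Of the other transcripts of the program, 5 of the 19 tested rose at days 1.5 to 3 from 2iL, where 27.7% of all genes did: Tdpoz4 by 3.56 ± 1.19, Gm6763 by 1.98 ± 0.75, Gm12794 by 1.87 ± 0.76, Sp110 by 1.34 ± 0.48 and Arg2, an arginase, by 1.30 ± 0.52. At days 5 and 7 against days 1.5 to 3, 14 of the 19 fell, against 29.6% of all genes. The extraembryonic endoderm markers went the other way over the same time, with 5 of 6 higher at days 5 and 7 than at days 1.5 to 3, against 33.4% of all genes.

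From SL the members were high from the start, and their highest values came earlier. Zscan4c stood at 144 CPM in undifferentiated SL cells. In EB culture it was 249 CPM at day 1 and then 167, 74.6, 37.2, 18.2, 4.79 and 5.21 CPM. In EpiSC culture the series was 428, 655, 568, 505, 298, 41.8 and 11.5 CPM, and in Neural culture 370, 464, 499, 467, 362, 44.3 and 28.3 CPM. The EB series was highest at day 1 and fell at each later time point to day 5, while the adherent series were highest at days 1.5 and 2 and remained above the undifferentiated library until day 3. Tmem92 peaked at 10.3 CPM at day 1 in EB, 29.9 CPM at day 1.5 in EpiSC and 23.5 CPM at day 2 in Neural culture, from 9.65 CPM at day 0, and Tcstv1 at 1.61, 4.24 and 2.98 CPM, from 1.04.

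Against the single SL day 0 library edgeR and DESeq2 called 0 of the 7 members at day 1 (18.1% of genes called by edgeR) and at days 1.5 to 3 (34.0%), and 1 (Zscan4d) and 0 had an unadjusted p under 0.05. Their values were positive, 0.90 ± 0.66 for Tmem92 to 1.83 ± 0.85 for Zscan4d at day 1, and at days 1.5 to 3 they reached 1.16 ± 0.75 for Zscan4d. Without the EB libraries 3 members were called higher at day 1 and 6 at days 1.5 to 3, all but Tcstv3 in the latter. At days 5 and 7 all 7 were lower than at day 0, against 21.7% of genes, from -4.04 ± 1.07 for Tcstv3 to -2.22 ± 0.82 for Zfp352, with -3.11 ± 0.60 for Zscan4c (adjusted p = 0.00071). The fit without the course term called 0 of the 7 and one fit over all 45 libraries called 2 (Tcstv3 and Tmem92). Against days 1.5 to 3, a comparison added after the values were seen, all 7 were lower at days 5 and 7, at 29.4% of genes called lower, with -3.92 ± 0.42 for Zscan4c, and the count was 7 with each library left out. The 21 other transcripts of the program that could be tested were all lower in that comparison, led by Ubtfl1 at -4.50 ± 0.49 and Tdpoz1 at -4.19 ± 0.87.

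The change from day 0 was also compared between the media. For the change to day 1 and that to days 5 and 7, the difference passed for 0 of the 7 members by edgeR and by DESeq2, at 8.13% and 19.4% of genes called by edgeR, with 0 at an unadjusted p under 0.05, and the members' medians of the difference, 2iL minus SL, were -0.65 and 1.75 on the log2 scale. The same day 0 libraries enter both changes, and without the EB libraries the difference to days 5 and 7 passed for 4.

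**Figure D3:**
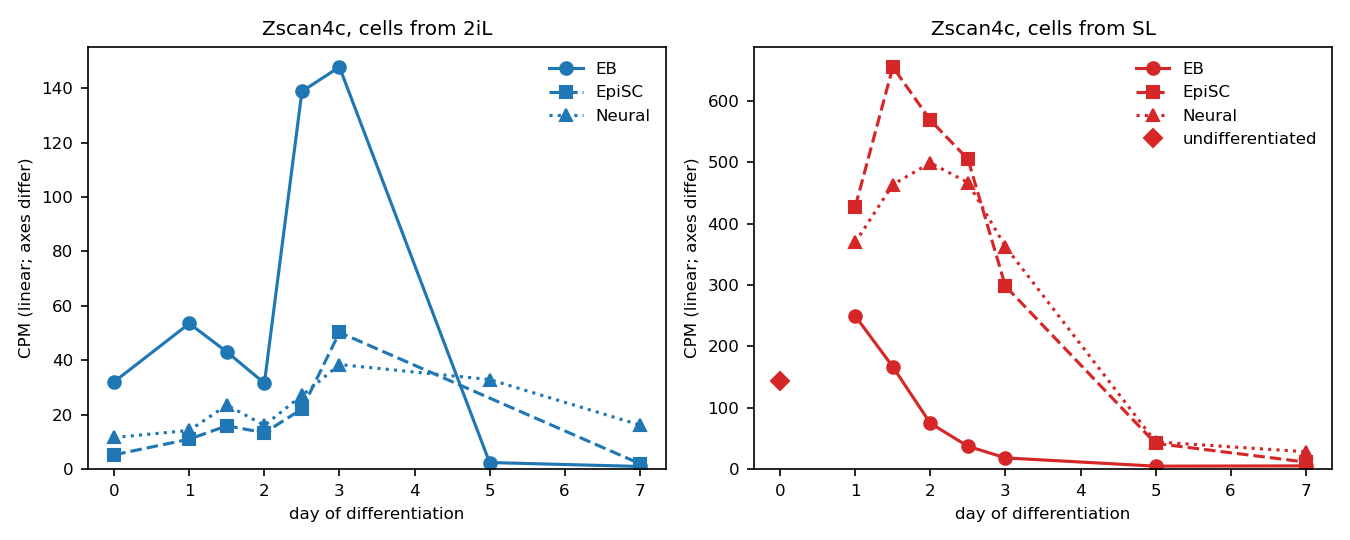
CPM of Zscan4c against day of differentiation on linear axes that start at 0, with cells from 2iL at left and cells from SL at right; each point is 1 library and the vertical scales differ. From 2iL the EB line rises to 139 and 148 CPM at days 2.5 and 3, above both adherent lines, and from SL the EB line lies below both adherent lines at every day.

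EB and adherent culture differed in opposite directions from the 2 media. EB culture was in suspension and in serum and both adherent courses were serum-free, so culture form and serum could not be told apart. Over days 1 to 3 from SL, Zscan4c ranged from 18.2 to 249 CPM in the 5 EB libraries, with a median of 74.6, and from 298 to 655 CPM in the 10 adherent libraries, with a median of 465. Each of the 7 members had all its EB values below all its adherent values, a pattern found for 2.91% of 14038 genes with 1 CPM or more in at least 3 of these libraries. The margin was small for Tcstv3, at 1.14 CPM in the highest EB library and 1.15 CPM in the lowest adherent library. From 2iL, Zscan4c ranged from 31.6 to 148 CPM in EB culture, with a median of 53.5, and up to 50.2 CPM in adherent culture, with a median of 19.1. The ranges overlapped, but at each of the 5 days the EB library was above both adherent libraries for Zscan4c, Zscan4d, Zscan4f, Zfp352 and Tmem92. For Tcstv1 this held at 3 days and for Tcstv3 at 4. The share of all genes with this daily pattern was not counted.

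Over all days and both media, EB against adherent culture gave 0 of 7 members called by edgeR and by DESeq2, at 49.2% of genes, with values from -0.78 ± 0.47 for Tmem92 to -0.31 ± 0.54 for Tcstv1, and 1 was called lower without the EB library of day 2.5 from 2iL. The contrast of EpiSC against Neural gave 0 of 7 by both tools at 29.6%, with a median of -0.17, and no unadjusted p was under 0.05 in either. Separate contrasts for the media over days 1 to 3 were added after the values were seen, with the 5 days of a course, which are serial samples, standing as its replicates. From 2iL all 7 members were higher in EB culture, against 26.1% of genes, from 1.66 ± 0.35 for Tmem92 to 2.31 ± 0.61 for Tcstv1, with 1.68 ± 0.32 for Zscan4c (adjusted p = 0.00023). From SL all 7 were lower in EB culture, against 19.5% of genes, from -2.53 ± 0.32 for Tmem92 to -2.13 ± 0.43 for Tcstv1, with -2.46 ± 0.38 for Zscan4c (adjusted p = 4.4e-05). The difference between these contrasts was called for 7 of 7, against 6.34% of genes called in that direction, at 4.14 ± 0.50 for Zscan4c, 4.19 ± 0.47 for Tmem92 and 4.44 ± 0.74 for Tcstv1.

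Several measurements stood beside this crossing. The 2iL EB series already had the highest day 0 value, 32.1 CPM of Zscan4c against 5.26 and 11.6, and the extraembryonic endoderm markers were lower in EB than in adherent culture from 2iL for 5 of 6 genes (23.3% of all genes), while from SL 2 of 6, Dab2 and Gata4, were higher (22.1% of all genes) and none lower. At days 2.5 and 3 their sum in the 2iL EB libraries, 82.9 and 70.0 CPM, lay below that of the adherent 2iL libraries of these days, 92.9 to 157 CPM, and below that of the SL EB libraries, 428 and 567 CPM. The part of these differences, and of the higher median depth of the 2iL EB libraries, was not tested. Without the EpiSC libraries the contrast from 2iL was called for 4 of 7 and the difference between the media for 5 of 7. Of the other transcripts of the program, 17 of 20 were higher in EB from 2iL and 20 of 20 lower in EB from SL.

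Of the genes known to start the program, Duxf3, the Dux copy named in the annotation, had the most similar course, except in its change from day 0 from SL. Dux lies in a repeated array, so its counts are uncertain as measures of one copy. In undifferentiated cells it had 0.416, 0.0665 and 0.140 CPM in the 2iL libraries and 5.87 CPM in the SL library. Among the 2iL values, that of EpiSC lay below the floor of 3 reads, 0.200 CPM there, and that of Neural lay at it. From 2iL the EB libraries of days 1.5, 2, 2.5, 3 and 5 had 0.143, 0.917, 3.16, 1.30 and 0.0754 CPM. The day 5 value lay at the floor of 3 reads. From SL, Duxf3 peaked at 7.13 CPM in EpiSC and 6.68 CPM in Neural culture at day 1.5. The EB libraries from SL of days 1 and 3 had 3.82 and 0.496 CPM. The highest EB value from 2iL thus came at day 2.5, when Zscan4c had reached 139 CPM. The log2 fold change of Duxf3, 2iL against SL, was -4.52 ± 0.59 at day 0 and -2.64 ± 0.43 at days 1 to 3. In EB against adherent culture it was 1.30 ± 0.41 higher from 2iL and 1.89 ± 0.35 lower from SL, with a difference between the media of 3.19 ± 0.54 (adjusted p = 0.00062). From SL, the highest values of Duxf3 in EB, EpiSC and Neural culture were 0.652, 1.21 and 1.14 times the day 0 library. For Zscan4c they were 1.73, 4.54 and 3.46 times that library. At days 1.5 to 3 against the single day 0 library from SL, the log2 fold change of Duxf3 was -1.04 ± 0.55. The members' median there was 0.80, and neither Duxf3 nor any member was called.

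Dppa2 and Dppa4, which act before Dux, followed the members only in part. Dppa2 stood at 88.7 to 142 CPM in 2iL and 109 CPM in SL at day 0, a log2 difference of 0.10 ± 0.24 that was not called, and at 173 to 286 CPM in the 6 libraries of day 1. Over days 1 to 3 neither differed between the media past the threshold, with 0.32 ± 0.17 for Dppa2 and 0.27 ± 0.15 for Dppa4. Dppa4 was 1.25 ± 0.16 lower in 2iL than in SL at day 0 (adjusted p = 0.00062) and rose by 1.79 ± 0.29 at day 1 from 2iL. Both fell by days 5 and 7 from both media, Dppa2 to -4.68 ± 0.46 from 2iL and -3.09 ± 0.34 from SL. The maternal factor Dppa3, also listed as an activator, went from 10.8 to 24.9 CPM in 2iL at day 0 to at most 2.63 CPM at day 1, and was 0.82 CPM in SL at day 0.

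**Figure D4:**
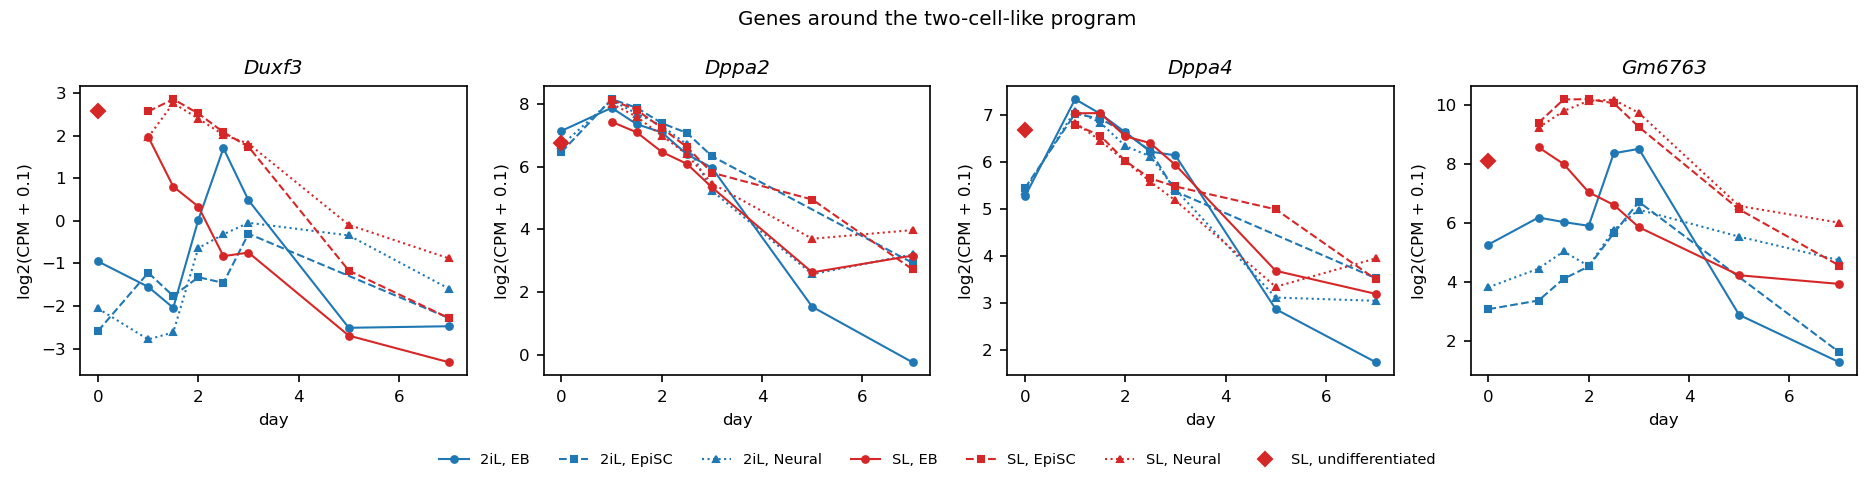
CPM of Duxf3, Dppa2, Dppa4 and Gm6763 on a log2 scale (with 0.1 CPM added) against day of differentiation, one point for each library, colours and lines as for the members. The SL adherent lines of Duxf3 and Gm6763 are highest from day 1.5 to day 3 and the 2iL EB line of both rises at day 2.5, whereas the Dppa2 lines of both media lie close together and fall from day 1 to day 3.

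Genes known to keep the program silent were measured beside the members. The list held 18 such repressors, among them Trim28 and Setdb1, which silence retroelements, and the chromatin assembly factor subunits Chaf1a and Chaf1b. Of these, 2 were lower and 1 higher in 2iL than in SL at day 0 (17.3% and 13.5% of all genes), with the RNA-binding protein gene Lin28a at -3.45 ± 0.32. At days 1 to 3, 6 were higher and 1 lower from 2iL than from SL, against 39.8% of all genes called in either direction. Mga stood at 0.41 ± 0.05 and L3mbtl2 at 0.34 ± 0.06, both of a Polycomb complex with Pcgf6. At days 5 and 7 against days 1.5 to 3, 11 were lower from 2iL and 12 from SL, against 29.6% and 29.4% of all genes. Rif1 stood at -1.05 ± 0.15 and -0.84 ± 0.10 and Trim28 at -1.01 ± 0.09 and -0.81 ± 0.08. Against day 0 from 2iL, 12 were lower and 5 higher at days 5 and 7 (30.9% and 33.8% of all genes), with Lin28a at 4.71 ± 0.32. In EB against adherent culture over days 1 to 3, 10 were higher and 1 lower from 2iL and 8 higher and 1 lower from SL, against 26.1% and 22.1% of all genes higher. The difference between the media passed for 2, against 6.34% of genes in that direction.

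Across the 45 libraries the 7 members rose and fell together, as did other genes. The Pearson correlation of log2(CPM + 0.1), with CPM scaled by TMM factors here, ran from 0.897 to 0.999 over the 21 pairs of members, with a median of 0.948. The pairs among Zscan4c, Zscan4d and Zscan4f, whose counts are hard to separate, had 0.996 to 0.999, and the other pairs at most 0.968. The libraries of a course are serial samples, so these are descriptions. Against the mean of the members' standardised values, the 10 most similar genes, members aside, of 15328 compared were Gm21761, Gm20767, Zscan4b, Gm8994, Gm21304, Gm21293, Gm6763, Gm8764, Gm21312 and Gm4340, with correlations from 0.985 to 0.990. On the scale of the library total, Gm6763 ranged from 2.32 to 1165.5 CPM and Zscan4b, the fourth Zscan4 copy with a row, from 0.453 to 222 CPM. Gm21304, Gm6763, Gm8764 and Gm21312 had no stretch of 50 letters found in that gene only, so their counts cannot be assigned to single copies. For Zscan4b, 9.88% of such stretches were found in that gene only. Of the 10, 10 were kept with CPM over the library total, 9 with Spearman's correlation, 9 in the 2iL libraries alone, 7 in the SL libraries alone and 3 with 1 CPM added in place of 0.1. On the same scale Duxf3 had 0.934, Dppa2 0.476, Dppa4 0.446 and Dppa3 -0.311, the repressors -0.201 to 0.392, the extraembryonic endoderm markers 0.162 to 0.515 and the pluripotency markers -0.110 to 0.367.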

How the data were processed

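Strand-specific RNA-seq of ribosomal RNA-depleted RNA was analysed for 45 libraries, 23 from 2iL and 22 from SL. The authors trimmed reads with TrimGalore, mapped them to GRCm38 with TopHat2 and Ensembl gene models, and counted reads per gene and strand with featureCounts; the counts were deposited without normalization. How reads with several matches were counted is not given in the sources used here. CPM was computed as counts over the library total, and for correlations was scaled by TMM factors; 435 rows without a symbol, with at most 0.0014% of the reads of a library, were left out.

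Tests used edgeR 4.0.16 in R 4.3.3 (quasi-likelihood test, TMM factors, filterByExpr, Benjamini-Hochberg adjustment over all genes tested, threshold 0.05), with day and course as terms and the 3 courses of a day standing as its replicates. The course labels pair libraries across days and media. Libraries of a course are serial samples, and no fit modelled their dependence beyond the course term. The 3 courses were plated apart in different culture conditions, so they are not repeats of one condition. The paper calls the sequenced time courses independent, but does not say that they began from separate stem cell cultures. P-values therefore measure the spread between these libraries. The changes within SL share 1 day 0 library, which entered the block of no course. Standard errors are the log2 fold change over the square root of F. Alternatives were DESeq2 1.42.0, its size factors, no filter on low counts, one fit over all libraries, no course block and leaving out libraries. Tests were also run on simulated counts, drawn independently for each library with the same spread for all genes. That check cannot show how the tests behave with serial samples. Wilson 95% intervals and the floor of 3 counts cover counting error only.

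The members and gene lists were chosen with earlier results of these data known. Both comparisons of days 5 and 7 with days 1.5 to 3, the 3 of EB with adherent culture over days 1 to 3, and the promoter letters were added after the values were seen. Genes named beside the members were at most the 4 with the largest change past the threshold in each list and comparison, Duxf3, Dppa2 and Dppa4, markers, and the 10 genes most like the members.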

Additional observations from a re-analysis of the deposited data

Results flagged for a closer look

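The contrast of EB with adherent culture over days 1 to 3 differed between the media for every member by an interaction term (edgeR, adjusted p from 8.8e-06 to 0.0018), in a comparison added after the values were seen. The difference, 2iL minus SL on the log2 scale, was 4.21 for Zfp352, 4.14 for Zscan4c, 4.18 for Zscan4d, 4.21 for Tcstv3, 4.19 for Tmem92, 4.44 for Tcstv1 and 4.14 for Zscan4f. The 5 days of a course are serial samples, and their dependence was not modelled. No group held 4 or more libraries, so no group was searched for a library far from the others.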

How the results depend on the processing

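The fit without the replicate block called 3054 genes for day 1 from 2iL in place of 4664, and 1082 in place of 2989, 3510 in place of 5604 and 4607 in place of 7018 for day 1, days 1.5 to 3 and days 5 and 7 from SL. It called 68 in place of 168 for the media at days 5 and 7, where DESeq2 called 483, and 493 in place of 1391 and 1898 in place of 3313 for the difference between media in the change to day 1 and to days 5 and 7. Without the block, 0 of 7 members were called lower at days 5 and 7 from SL, and one fit over all 45 libraries called 2. At days 1.5 to 3 from 2iL, DESeq2 called 2 members higher and the one fit 0, where 1 was called. At day 0, DESeq2 called 2 and the one fit 1 of the 7 lower in 2iL. The sign turned for Zfp352 at days 5 and 7 against day 0 from 2iL (0.14, and -0.13 in the one fit) and for Tcstv1 in EB against adherent culture (-0.31, and 0.042 by DESeq2). The cause was not tested.

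With libraries or courses left out, the genes called ranged from 1884 to 5183 for day 1 and 5814 to 9067 for days 1.5 to 3 from 2iL, 925 to 3444 for day 1 from SL, 3461 to 6774 and 33 to 972 for the media at days 1 to 3 and at days 5 and 7, 4249 to 6806 for EB against adherent culture from SL, 555 to 2122 for its difference between media, and 259 to 1549 and 1771 to 3588 for the difference in the change to day 1 and to days 5 and 7. Members called ranged from 0 to 4 (days 1.5 to 3 from 2iL, higher), 0 to 4 (days 5 and 7 against day 0 from 2iL, lower), 0 to 7 (days 5 and 7 against days 1.5 to 3 from 2iL), 0 to 3 and 0 to 6 (day 1 and days 1.5 to 3 from SL, higher), 4 to 7 and 0 to 2 (media at days 1 to 3 and at days 5 and 7), 0 to 1 (EB against adherent culture), 4 to 7 (the same from 2iL) and 0 to 4 (difference in the change to days 5 and 7). Signs turned within -0.019 to 2.73 for Tcstv1 at day 1 from 2iL; within -1.26 to 1.59 for Zfp352, -3.41 to 0.76 for Zscan4c, -3.64 to 1.22 for Zscan4d and -3.35 to 0.84 for Zscan4f at days 5 and 7 against day 0 from 2iL; within -0.11 to 1.42 for Tcstv3 at day 1 and -0.15 to 1.31 for Tcstv3 and -0.23 to 1.26 for Tmem92 at days 1.5 to 3 from SL; and within -2.13 to 0.59 for Tcstv3 between the media at days 5 and 7.

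Of the members' other log2 fold changes, 420 kept direction and side of the threshold under another tool, scaling, filter or model, 26 lost the call and 1 gained it. With libraries left out 2816 kept both, 35 lost the call, 31 gained it and 18 turned sign, within the ranges given above. The ranking by likeness on CPM over the library total was added after the values were seen. Without the SL day 0 library, the media at day 0 and the changes from day 0 in SL have no value. Tcstv1 and Tcstv3, with 694 and 426 reads over all libraries, are limited by depth.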
